A study of Homo sapiens with 9 samples.

Results

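The 35 genes described here build the lysosome and feed it with autophagy cargo, and they were taken by symbol from the 63856 genes of the deposited tables. They comprise 18 acid hydrolases, 3 genes of sphingolipid activation and cholesterol export, 4 of the lysosomal membrane, 3 of the proton pump (V-ATPase), 3 MiT/TFE transcription factors and 4 of autophagosome formation. The list is one of function, and it was chosen with earlier results of these data known. Total RNA, depleted of ribosomal RNA, was sequenced from TCam-2 cells, a human testicular seminoma line, in 9 samples with 3 biological replicates per group. Wild-type cells (WT) were unmodified. Negative control cells (NC) were transfected with the px335_G2P vector, which also encodes GFP, carrying guide RNAs nonspecific for the human genome. Cells with the activated ESX1 gene (ESX1) received the same vector with guide RNAs for ESX1 together with PB-TRE-dCas9-VPR, a doxycycline-inducible activator. Lipofectamine was used for transfection, and the transfected cells were then kept under puromycin and doxycycline. The control is described only with the guide vector, so ESX1 itself and the dCas9-VPR plasmid cannot be told apart in ESX1 against NC. The cells were mixed populations in which only some were GFP-positive.

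Lysosomes are acidic organelles in which hydrolases degrade proteins, lipids and sugars delivered by endocytosis or by autophagosomes. The V-ATPase acidifies them, membrane glycoproteins such as LAMP1 and LAMP2 line them, and inherited loss of single hydrolases or lipid exporters causes storage diseases. Many of these genes share a palindromic promoter element (CLEAR) that is bound by TFEB, TFE3 and MITF, which enter the nucleus when nutrient signalling through MTORC1 at the lysosome is low.

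Expression is given as CPM, a gene's counts relative to its library size, which was scaled with TMM, and levels of different genes are compared as CPM per kb of exon. A gene was called at an adjusted p below 0.05 in edgeR's quasi-likelihood test, adjusted over the 18452 genes tested. Of the 35 genes 34 were tested. IDUA, the hydrolase of dermatan and heparan sulfate, had 2 to 10 counts per sample and was not. Total counts were 5212804 to 10644408 per sample, lowest in ESX1 replicate 3. ESX1, the targeted gene, was at 3.13 to 4.08 CPM in WT, 2.89 to 3.63 in NC and 31.4 to 57.0 in the activated cells (14.5-fold over NC, adjusted p = 4.48e-08). All 9 seminoma markers were expressed, and their summed level was 3795 to 4659 CPM in WT, 2865 to 3073 in NC and 1608 to 1952 in ESX1. In ESX1 against NC 7 of the 9 fell, where 2.37% of all tested genes did. In bulk RNA, fewer cells of a type and less RNA per cell cannot be told apart.

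Of the 34 tested genes, 24 had a log2 fold change above 0 in ESX1 against WT, 23 in NC against WT and 21 in ESX1 against NC. Of all 18452 tested genes, 9309, 9351 and 9235 did so in the same comparisons. Of the 34, 19 had no call in any comparison, a share that was not counted over all genes. In ESX1 against WT, 12 of the 34 rose, where 12.9% of all tested genes did, and 2 fell, where 15.8% did. A change of at least 2-fold was passed by 7 of the 34 (background 11.5%), namely WIPI1, MAP1LC3B and GABARAPL1 of autophagy, TFEB and MITF, SMPD1 and MCOLN1. In NC against WT, 9 rose (background 6.82%), 1 fell (background 10.3%) and 1, MCOLN1, passed 2-fold (background 5.27%). In ESX1 against NC, 1 rose, which was GABARAPL1 (background 1.88%), 0 fell (background 2.37%) and 0 passed 2-fold (background 1.78%). Over WT, 8 genes rose in both transfected groups, in comparisons that share the WT samples, and these were GABARAPL1, MAP1LC3B, WIPI1, SMPD1, HEXA, GAA, MCOLN1 and ATP6V0D1. The share of all tested genes that rose in both was not counted, so this 8 has no background. TFEB, MITF, NPC1 and ATP6V1H were called in ESX1 against WT and not in NC against WT, and LAMP1 the reverse, and these differences between comparisons were not tested.

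The median log2 fold change of the 34 genes was 0.26 in ESX1 against WT, 0.26 in NC against WT and 0.11 in ESX1 against NC, while that of all tested genes was 0.01, 0.01 and 0.00. Summed over the 35 genes, the level on unscaled library totals was 2057 to 2137 CPM in WT, 2545 to 2566 in NC and 2471 to 2640 in ESX1. With library sizes scaled by TMM, as in the tests, the sum was 2176 to 2334 CPM in WT, 2407 to 2435 in NC and 2404 to 2675 in ESX1, a smaller gap to WT. Neither transfected group overlapped WT in either sum, and the ESX1 samples lay on both sides of NC in both. Of the 34 tested genes, 1 was called higher against both WT and NC (GABARAPL1, background 1.59%) and 0 were called lower (background 2.13%), and these comparisons share the ESX1 samples. All 3 ESX1 samples lay above all 6 WT and NC samples in 7 genes (background 6.39%), which were GABARAPL1, MAP1LC3B, WIPI1, SMPD1, NPC1, ATP6V1H and TFEB. In 0 of the 34 did all 3 lie below (background 7.21%).

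**Figure D1:**
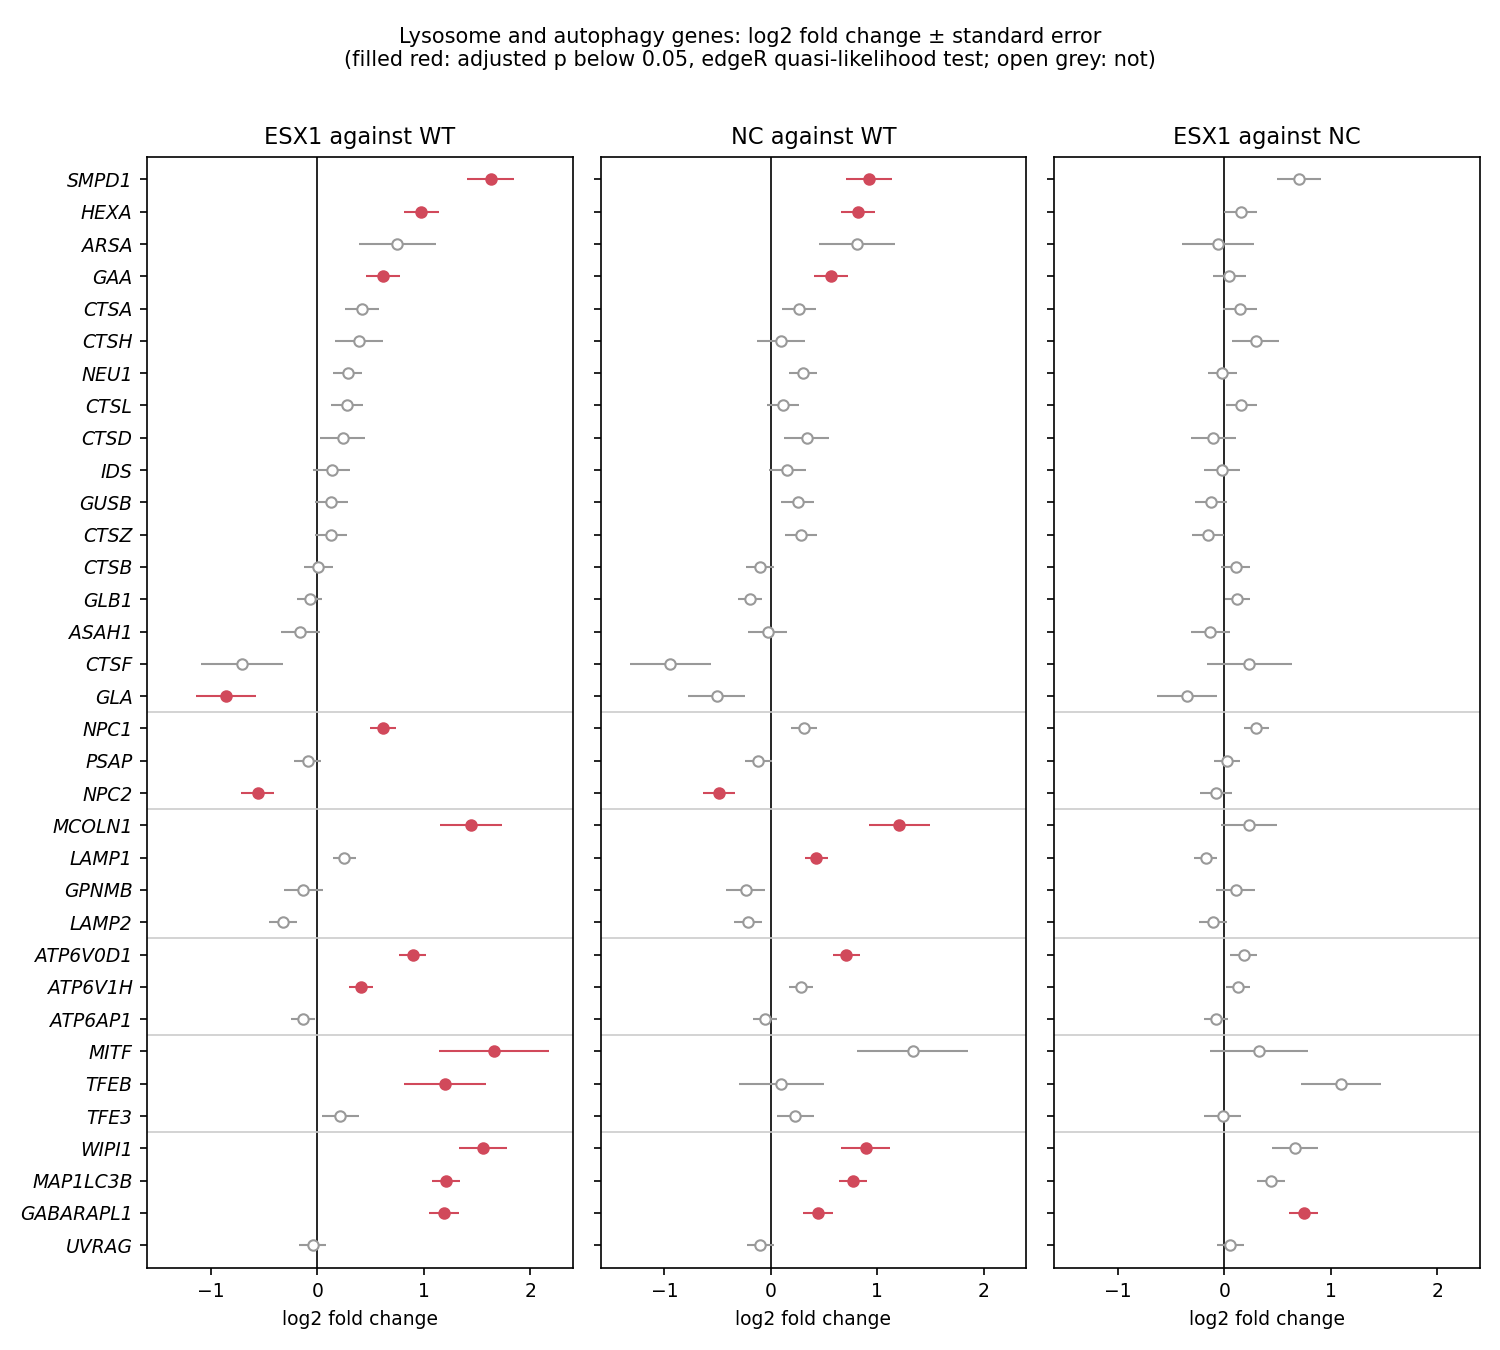
Each point is the log2 fold change of 1 gene with its standard error (x axis), in the 3 comparisons, with the 34 tested genes grouped by role from hydrolases at the top to autophagy at the bottom; filled red points passed an adjusted p of 0.05. In ESX1 against WT 14 genes are filled, in NC against WT 10, and in ESX1 against NC GABARAPL1 alone.

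RefSeq promoter windows (GRCh38.p14, 250 bases before to 50 after a start site) were held for 27 of the 35 genes and not for ARSA, ASAH1, ATP6V1H, CTSB, HEXA, LAMP2, PSAP and UVRAG. CACGTG, which reads the same on both strands and is the core of the CLEAR element, was found in 8 of the 27 (ATP6V0D1, CTSA, CTSD, CTSF, GAA, LAMP1, MCOLN1 and NEU1), and in 8.77% of all 27305 genes with a window. Its extended form TCACGTGA, which contains CACGTG, was found in ATP6V0D1, CTSA, GAA, LAMP1 and MCOLN1, and in 1.18% of all genes. TCATGTGA or its reverse complement, which do not contain CACGTG, was found in GPNMB alone of the 27, and in 1.24% of all genes. The windows of MCOLN1, ATP6V0D1 and GAA are shown because these genes carry the element and rose in both transfected groups, that of LAMP1 because it holds 6 copies, and that of GABARAPL1 because it was called against both controls and holds none. Capitals mark CACGTG, and each window is written 5′ to 3′ on the gene's own strand.
MCOLN1, chr19:7522374-7522673, plus strand: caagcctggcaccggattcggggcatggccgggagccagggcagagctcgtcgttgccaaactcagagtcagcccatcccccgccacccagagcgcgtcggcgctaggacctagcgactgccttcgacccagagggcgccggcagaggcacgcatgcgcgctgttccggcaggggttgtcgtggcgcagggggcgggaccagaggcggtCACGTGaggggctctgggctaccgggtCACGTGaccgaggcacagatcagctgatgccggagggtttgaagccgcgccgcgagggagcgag
ATP6V0D1, chr16:67481108-67481407, minus strand: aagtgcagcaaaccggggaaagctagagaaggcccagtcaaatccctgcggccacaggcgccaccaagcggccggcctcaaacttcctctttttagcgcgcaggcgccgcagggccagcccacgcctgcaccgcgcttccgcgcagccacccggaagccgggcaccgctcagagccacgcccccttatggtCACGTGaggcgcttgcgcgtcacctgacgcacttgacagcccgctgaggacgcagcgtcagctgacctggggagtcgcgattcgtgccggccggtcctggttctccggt
GAA, chr17:80101331-80101630, plus strand: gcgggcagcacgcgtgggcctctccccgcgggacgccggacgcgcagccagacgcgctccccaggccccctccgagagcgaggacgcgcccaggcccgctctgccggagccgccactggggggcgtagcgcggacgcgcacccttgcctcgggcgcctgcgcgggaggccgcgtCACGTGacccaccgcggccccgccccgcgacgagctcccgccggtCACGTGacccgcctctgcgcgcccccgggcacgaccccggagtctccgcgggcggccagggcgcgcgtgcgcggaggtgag
LAMP1, chr13:113296989-113297288, plus strand: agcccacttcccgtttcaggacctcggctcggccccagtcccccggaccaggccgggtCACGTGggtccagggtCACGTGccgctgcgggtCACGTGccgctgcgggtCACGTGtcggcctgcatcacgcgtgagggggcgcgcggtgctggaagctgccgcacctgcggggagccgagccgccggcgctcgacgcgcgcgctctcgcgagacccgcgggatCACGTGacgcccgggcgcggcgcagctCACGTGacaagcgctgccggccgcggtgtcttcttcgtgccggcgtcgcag
GABARAPL1, chr12:10212627-10212926, plus strand: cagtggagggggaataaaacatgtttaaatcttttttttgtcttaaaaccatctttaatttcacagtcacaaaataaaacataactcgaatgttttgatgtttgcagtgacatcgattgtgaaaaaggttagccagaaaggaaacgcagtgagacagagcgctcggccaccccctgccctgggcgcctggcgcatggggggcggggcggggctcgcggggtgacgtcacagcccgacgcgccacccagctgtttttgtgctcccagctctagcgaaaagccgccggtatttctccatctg

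In MCOLN1 the matches began 41 and 14 bases before the start site, in GAA 76 and 31 bases before it, and in ATP6V0D1 59 bases before it. The 6 matches of LAMP1 began between 192 and 1 bases before its start site. Of the 8 genes with CACGTG in the window, 3 rose in ESX1 against WT and 4 in NC against WT, with medians of 0.35 and 0.38 on the log2 scale. Of the 18 tested genes whose windows lack it, 7 rose in ESX1 against WT and 4 in NC against WT, with medians of 0.25 and 0.19. Of all tested genes 12.9% rose in ESX1 against WT and 6.82% in NC against WT. In ESX1 against NC 0 of the 8 and 1 of the 18 rose (background 1.88%), with medians of 0.10 and 0.14. The autophagy genes with the largest changes (GABARAPL1, MAP1LC3B and WIPI1) and SMPD1, NPC1 and TFEB had no match to any of the 3 motifs. A match is a run of letters and not a binding site, and its absence covers only these 300 bases.

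Of the 4 autophagy genes, GABARAPL1, MAP1LC3B and WIPI1 rose over WT in each transfected group, and UVRAG was not called. GABARAPL1 encodes a ubiquitin-like ATG8 protein that is conjugated to autophagosome membranes and binds cargo receptors. It was at 29.7, 35.4 and 36.8 CPM in WT, 47.2, 47.9 and 43.6 in NC, and 78.3, 65.4 and 89.4 in ESX1. The 3 groups did not overlap, with WT lowest and ESX1 highest. ESX1 was 1.68-fold over NC (log2 fold change 0.75 ± 0.14 SE, adjusted p = 0.00351) and 2.28-fold over WT (1.19 ± 0.14, adjusted p = 7.61e-06). NC was 1.36-fold over WT (adjusted p = 0.0351), a call that was lost without WT replicate 1 (log2 fold change 0.35, adjusted p = 0.112), WT replicate 2 (adjusted p = 0.082), or any of NC replicates 1, 2 and 3 (adjusted p = 0.0898, 0.101 and 0.0625). The call against NC held without each of the 9 samples in turn.

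MAP1LC3B, the LC3B protein used as the standard marker of autophagosomes, was at 28.9, 24.3 and 24.1 CPM in WT, 42.4, 41.9 and 47.8 in NC, and 56.0, 60.0 and 63.4 in ESX1. These groups did not overlap either. It rose 2.31-fold in ESX1 (log2 fold change 1.21 ± 0.13 SE, adjusted p = 3.98e-06) and 1.71-fold in NC (0.77 ± 0.13, adjusted p = 0.000788) over WT. ESX1 was 1.36-fold over NC (0.44 ± 0.13, adjusted p = 0.0648), short of the threshold. WIPI1, which binds phosphatidylinositol 3-phosphate on the forming autophagosome, was at 6.01, 4.96 and 4.07 CPM in WT, 9.02, 9.54 and 9.36 in NC, and 16.2, 11.6 and 16.6 in ESX1. It showed the same order with no overlap, 2.94-fold up in ESX1 (adjusted p = 8.25e-05) and 1.86-fold up in NC (adjusted p = 0.0132) over WT. The NC call was lost without WT replicate 3 (adjusted p = 0.0655), and ESX1 against NC (log2 fold change 0.66 ± 0.21, adjusted p = 0.102) was called only without ESX1 replicate 2 (0.81, adjusted p = 0.0432). Counting did not use the strand, and 28.07% of the exon bases of WIPI1 also lie in exons of other genes, mostly ARSG, against 8.05% for GABARAPL1 and 2.82% for MAP1LC3B. UVRAG, a partner of BECN1 in a lipid kinase complex, ranged from 43.5 to 54.0 CPM over all 9 samples, with log2 fold changes of -0.04, -0.10 and 0.06 in ESX1 against WT, NC against WT and ESX1 against NC.

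**Figure D2:**
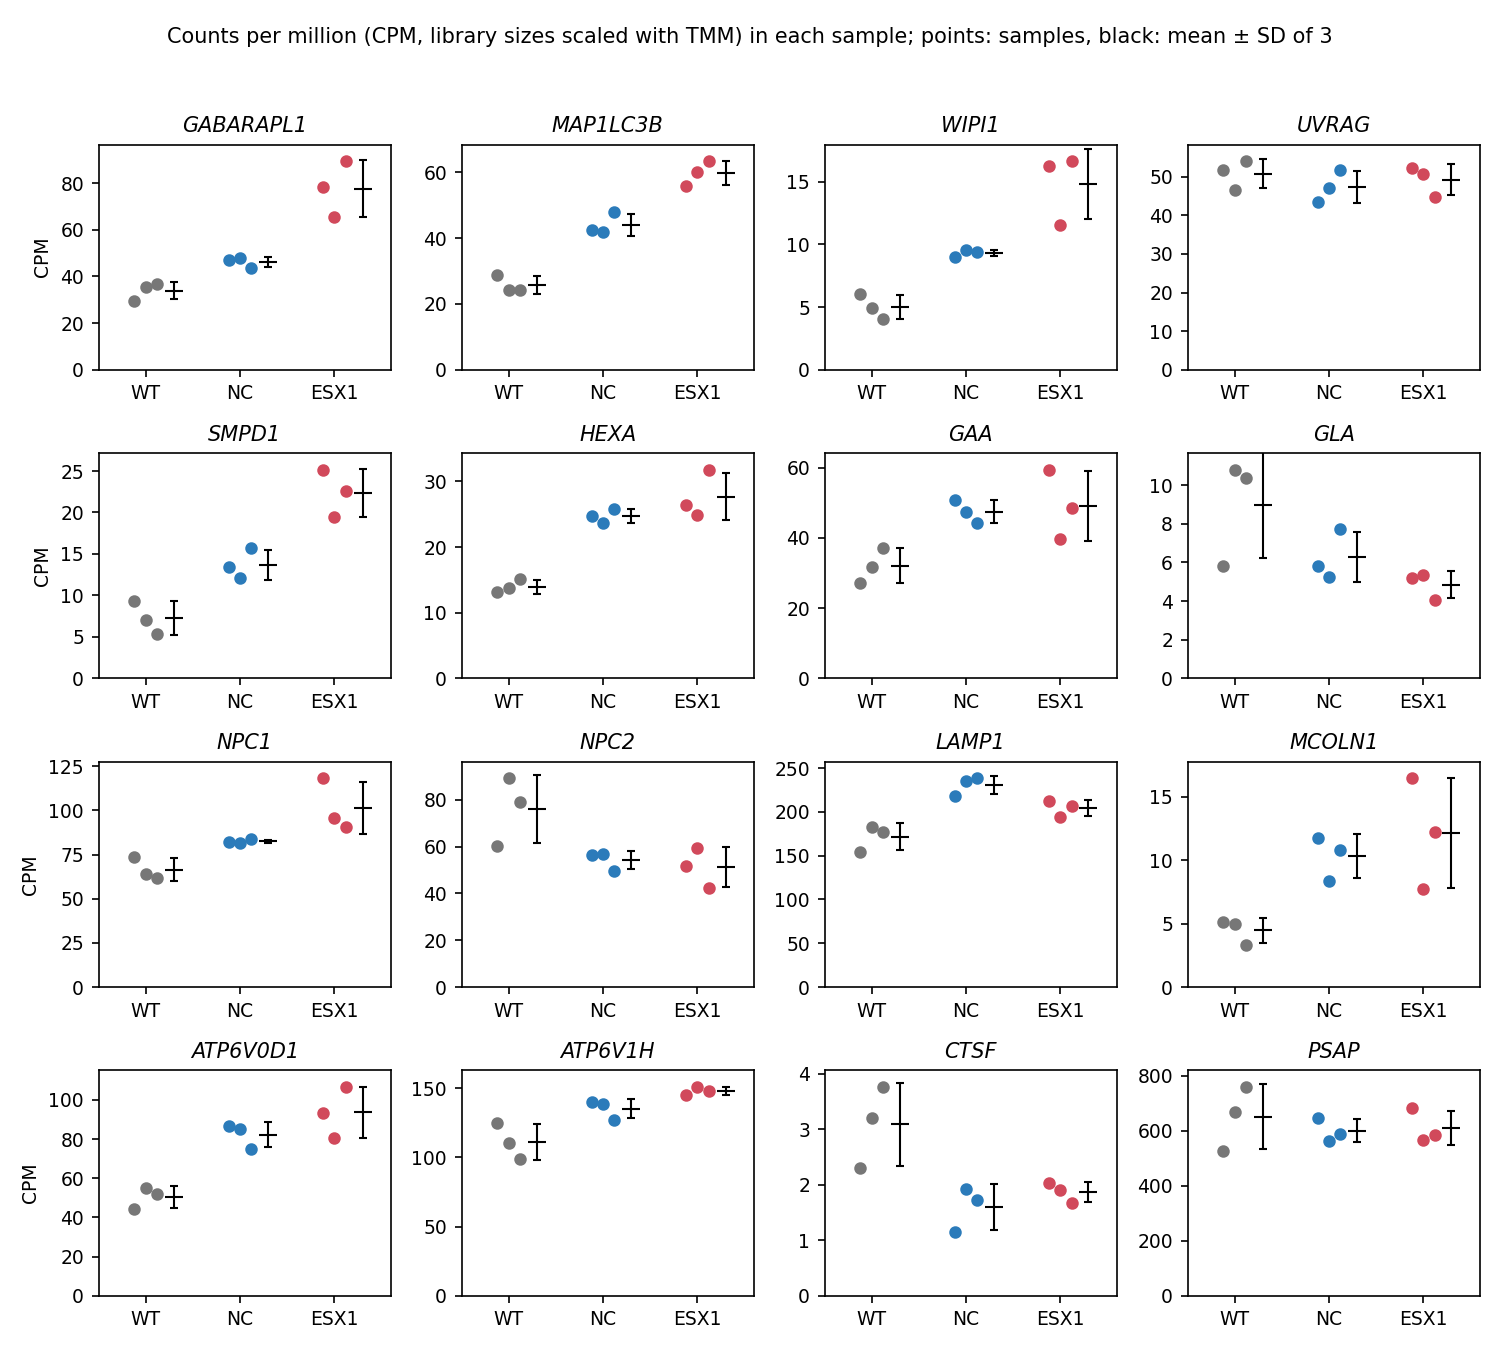
CPM (y axis, from 0) of 16 of the 35 genes in each of the 3 WT, 3 NC and 3 ESX1 samples (points), with the mean and SD of each group beside them in black. In GABARAPL1, MAP1LC3B, WIPI1 and SMPD1 the 3 groups are stepped without overlap, while in HEXA, GAA, MCOLN1 and ATP6V0D1 NC and ESX1 share one range above WT.

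The MiT/TFE factors differed widely in level. Per kb of exon, TFE3 was the most abundant in every group (10.2 CPM per kb in WT, 11.97 in NC and 11.9 in ESX1). TFEB was at 0.46, 0.49 and 1.03 CPM per kb and MITF at 0.13, 0.34 and 0.42. These levels of TFEB and MITF rest on 13 to 86 and 3 to 34 counts per sample, which limits their precision.

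TFEB, the master activator of lysosomal genes, was at 2.95, 2.62 and 2.19 CPM in WT, 3.84, 1.39 and 3.05 in NC, and 8.72, 4.93 and 3.88 in ESX1. The ESX1 samples were all above the 6 controls, replicate 3 by a narrow margin, while NC spread to both sides of WT. TFEB rose 2.29-fold in ESX1 over WT (log2 fold change 1.20 ± 0.39 SE, adjusted p = 0.0268). It had the largest difference of the 34 genes between ESX1 and NC, 2.14-fold (1.10 ± 0.38), which did not pass the test (adjusted p = 0.126). The call against WT was lost without WT replicate 2 (adjusted p = 0.0692), WT replicate 3 (0.0844) or ESX1 replicate 1 (log2 fold change 0.78, adjusted p = 0.188).

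MITF, the factor of melanocytes and osteoclasts, was at 1.97, 0.58 and 0.31 CPM in WT, 2.80, 1.72 and 2.85 in NC, and 3.45, 3.12 and 2.59 in ESX1. WT replicate 1 stood above the other WT samples and overlapped NC. MITF rose 3.15-fold in ESX1 over WT (log2 fold change 1.66 ± 0.52 SE, adjusted p = 0.0234) and was 2.52-fold higher in NC than in WT (1.33 ± 0.52, adjusted p = 0.0883). Without WT replicate 1 the MITF difference from WT was 2.79 on the log2 scale in ESX1 (adjusted p = 0.00109) and 2.47 in NC (adjusted p = 0.00496), and limma on the authors' log2 values gave 0.78 in ESX1 (adjusted p = 0.00958). The ESX1 call was lost without WT replicate 2 (adjusted p = 0.086), WT replicate 3 (0.0942) or ESX1 replicate 1 (0.0636). ESX1 against NC was 0.32 ± 0.46 (adjusted p = 0.809). TFE3 was at 37.1 to 49.7 CPM in WT, 46.1 to 55.5 in NC and 37.0 to 64.0 in ESX1, with overlapping groups and no call. Its log2 fold changes over WT were 0.22 in ESX1 and 0.23 in NC.

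**Figure D3:**
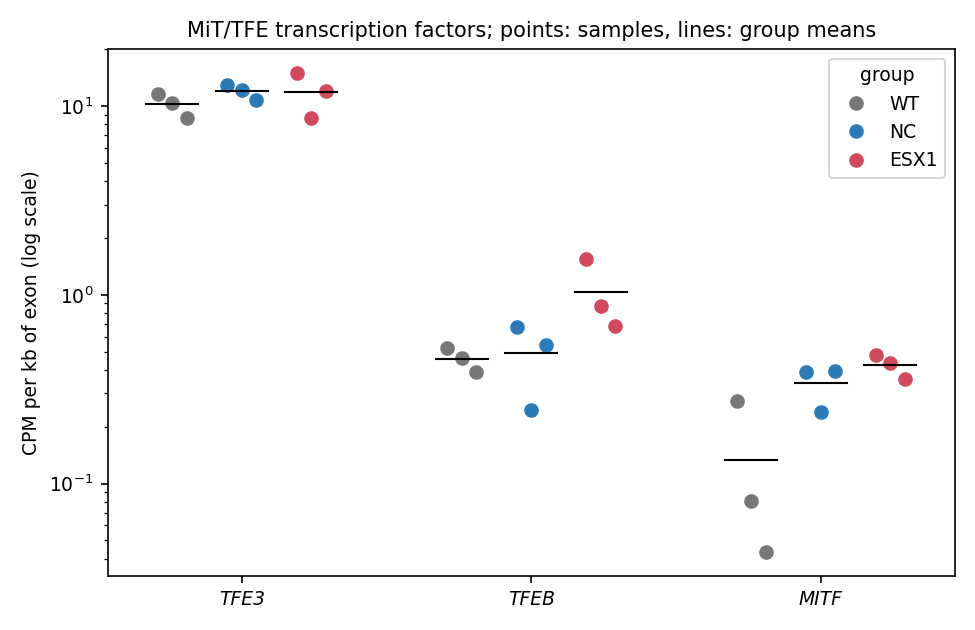
Level of the 3 MiT/TFE genes as CPM per kb of exon (y axis, log scale) in each WT, NC and ESX1 sample (points), with group means as black lines. TFE3 is the highest of the 3 in every group, and TFEB and MITF lie below it in every sample. In TFEB the ESX1 samples lie above both controls, replicate 3 only narrowly above NC, and the difference from NC was not called.

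Of the 18 hydrolases 17 were tested. In ESX1 against WT SMPD1, HEXA and GAA rose (17.65%, background 12.9%) and GLA fell (5.88%, background 15.8%). In NC against WT SMPD1, HEXA and GAA rose (17.65%, background 6.82%) and 0 fell (background 10.3%). Against NC 0 passed (background 1.88% higher and 2.37% lower). SMPD1, the acid sphingomyelinase that frees ceramide from sphingomyelin, was at 9.39, 6.997 and 5.33 CPM in WT, 13.4, 12.1 and 15.7 in NC, and 25.1, 19.4 and 22.5 in ESX1. The 3 groups were stepped without overlap. It rose 3.09-fold in ESX1 (log2 fold change 1.63 ± 0.22 SE, adjusted p = 3.26e-05) and 1.90-fold in NC (0.92 ± 0.22, adjusted p = 0.00793) over WT. ESX1 was 1.63-fold over NC (0.70 ± 0.21, adjusted p = 0.0631), which passed without WT replicate 1 (adjusted p = 0.0327), WT replicate 3 (0.0364) or ESX1 replicate 2 (0.0484).

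HEXA, the alpha subunit of the hexosaminidase that degrades GM2 ganglioside, was at 13.1, 13.7 and 15.1 CPM in WT, 24.8, 23.7 and 25.8 in NC, and 26.5, 24.8 and 31.8 in ESX1. NC and ESX1 overlapped and both lay above WT. The changes over WT were 1.97-fold in ESX1 (adjusted p = 0.000228) and 1.77-fold in NC (adjusted p = 0.00202), and 16.32% of the exon bases of HEXA are shared with other genes. GAA, the alpha-glucosidase of lysosomal glycogen, was at 27.3, 31.8 and 37.2 CPM in WT, 50.8, 47.4 and 44.4 in NC, and 59.4, 39.6 and 48.4 in ESX1. Here too the transfected groups overlapped above WT, by 1.53-fold in ESX1 (adjusted p = 0.00804) and 1.48-fold in NC (adjusted p = 0.0208). The ESX1 call of GAA was lost without ESX1 replicate 1 (adjusted p = 0.0536), and its NC call without WT replicate 1 (0.0738), WT replicate 2 (0.074), NC replicate 1 (0.0765) or NC replicate 2 (0.0563).

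GLA, the alpha-galactosidase A that cleaves globotriaosylceramide, went the other way. It was at 5.79, 10.8 and 10.3 CPM in WT, 5.81, 5.25 and 7.74 in NC, and 5.17, 5.33 and 4.06 in ESX1. WT replicate 1 was close to the transfected samples. The fall in ESX1 over WT (log2 fold change -0.86 ± 0.28 SE, adjusted p = 0.0286) was lost without WT replicate 2 (adjusted p = 0.114), WT replicate 3 (0.101), ESX1 replicate 1 (0.0508) or ESX1 replicate 3 (0.109). CTSF, a cysteine cathepsin, had the third largest difference of NC from WT and was at 2.29, 3.21 and 3.76 CPM in WT, 1.14, 1.93 and 1.73 in NC, and 2.03, 1.91 and 1.66 in ESX1. All 6 transfected samples were below WT, but neither comparison passed (log2 fold change -0.94 ± 0.38, adjusted p = 0.1, in NC and -0.71 ± 0.38, adjusted p = 0.181, in ESX1).

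The other cathepsins showed no call in any comparison. Against WT the log2 fold changes in ESX1 were 0.42 for CTSA (adjusted p = 0.0605), the serine carboxypeptidase that protects GLB1 and NEU1, 0.39 for CTSH, 0.28 for CTSL, 0.24 for the aspartic protease CTSD, 0.13 for CTSZ and 0.01 for CTSB. CTSA had ESX1 samples at 32.7 to 41.9 CPM against 22.4 to 32.4 in WT, and passed without WT replicate 3 (adjusted p = 0.0487) or ESX1 replicate 2 (0.0294). Of CTSD 52.69% of the exon bases, and of CTSA 28.48%, lie in exons of other genes. The remaining glycosidases, sulfatases and lipid hydrolases also had no call. NEU1, the sialidase, was at 0.28 in ESX1 (0.43, adjusted p = 0.0341, without ESX1 replicate 3) and 0.30 in NC on the log2 scale over WT. ARSA, the sulfatase of sulfatide, was at 0.75 ± 0.36 in ESX1 and 0.81 ± 0.36 in NC (adjusted p = 0.132 and 0.13), on 20 to 53 counts per sample. IDS, the iduronate sulfatase, was at 0.13 in ESX1 over WT, the beta-glucuronidase GUSB at 0.13, the beta-galactosidase GLB1 at -0.07 and the acid ceramidase ASAH1 at -0.16. The 11 pseudogene copies of GUSB held 161.34% of the counts of GUSB itself, so reads may have been split among them and its value is uncertain. Against NC the log2 fold changes of the 17 hydrolases had a median of 0.05.

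Among the genes of sphingolipid activation and cholesterol export, NPC1 and NPC2 moved apart. They act in sequence, NPC2 picking up free cholesterol in the lumen and handing it to NPC1 in the membrane. NPC1 was at 73.9, 63.8 and 61.8 CPM in WT, 82.0, 81.8 and 83.6 in NC, and 118, 95.6 and 90.7 in ESX1. The 3 groups did not overlap, and the rise in ESX1 over WT was 1.53-fold (log2 fold change 0.61 ± 0.12 SE, adjusted p = 0.00124). NC over WT was 0.31 ± 0.12 (adjusted p = 0.0923) and passed without WT replicate 1 (0.39, adjusted p = 0.0482). ESX1 against NC was 0.30 ± 0.12 and was not called (adjusted p = 0.211).

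NPC2 was at 60.2, 89.1 and 79.0 CPM in WT, 56.5, 56.6 and 49.7 in NC, and 51.8, 59.4 and 42.3 in ESX1. All transfected samples were below WT, with WT replicate 1 the nearest. It fell in ESX1 (log2 fold change -0.56 ± 0.15 SE, adjusted p = 0.0101) and in NC (-0.49 ± 0.15, adjusted p = 0.0344) over WT. The first call was lost without WT replicate 2 (adjusted p = 0.0695) or ESX1 replicate 3 (0.0741), and the second without WT replicate 2 (0.187), WT replicate 3 (0.0939) or NC replicate 1, 2 or 3 (0.0854, 0.0885 and 0.157). PSAP, the precursor of the saposins, was the most abundant of the 35 genes per kb of exon, at 201 CPM per kb in WT, 185 in NC and 189 in ESX1. Its samples overlapped in all groups (525 to 759 CPM in WT, 565 to 648 in NC and 565 to 682 in ESX1), with log2 fold changes of -0.09, -0.12 and 0.03 in ESX1 against WT, NC against WT and ESX1 against NC.

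Of the membrane genes, MCOLN1, the calcium channel of the lysosome, changed the most. It was at 5.13, 4.96 and 3.34 CPM in WT, 11.7, 8.36 and 10.8 in NC, and 16.4, 7.75 and 12.2 in ESX1. NC and ESX1 overlapped, and every transfected sample was above WT. The rise over WT was 2.31-fold in NC (log2 fold change 1.21 ± 0.29 SE, adjusted p = 0.00788), the only 2-fold call among the 34 genes in that comparison, and 2.72-fold in ESX1 (1.44 ± 0.29, adjusted p = 0.00116). ESX1 against NC was 0.24 ± 0.27 (adjusted p = 0.743).

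LAMP1, the main glycoprotein of the lysosomal membrane, peaked in NC. It was at 154, 183 and 177 CPM in WT, 219, 235 and 238 in NC, and 213, 194 and 206 in ESX1. Without overlap, the ESX1 samples lay between WT and NC. NC over WT passed (log2 fold change 0.43 ± 0.11 SE, adjusted p = 0.0113), except without NC replicate 3 (adjusted p = 0.0525), whereas ESX1 over WT (0.25 ± 0.11, adjusted p = 0.0884) and ESX1 over NC (-0.17 ± 0.11, adjusted p = 0.469) did not. LAMP2, its paralog needed for fusion with autophagosomes, was at 108 to 122 CPM in WT, 84.0 to 110 in NC and 80.3 to 108 in ESX1. Its log2 fold change in ESX1 over WT was -0.33 ± 0.13 (adjusted p = 0.0743), which passed without ESX1 replicate 2 (-0.46, adjusted p = 0.0165). GPNMB, a glycoprotein of melanosomes and stressed lysosomes, was at 33.5 to 58.3 CPM in WT, 30.9 to 41.1 in NC and 36.9 to 45.5 in ESX1. Its groups overlapped and its log2 fold changes were -0.13, -0.24 and 0.11 in the same order of comparisons as above.

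The V-ATPase genes changed unevenly. ATP6V0D1, a subunit of the membrane sector, was at 44.2, 54.8 and 52.0 CPM in WT, 86.7, 85.2 and 74.9 in NC, and 93.5, 80.8 and 107 in ESX1. NC and ESX1 overlapped, both above WT, by 1.64-fold (adjusted p = 0.00127) and 1.86-fold (adjusted p = 7.38e-05). ATP6V1H, a subunit of the cytosolic sector, was at 125, 110 and 98.8 CPM in WT, 140, 138 and 127 in NC, and 145, 151 and 148 in ESX1. The groups were stepped with small gaps, and only ESX1 over WT passed (1.33-fold, log2 fold change 0.41 ± 0.11 SE, adjusted p = 0.0111). That call was lost without WT replicate 2 (adjusted p = 0.0511) or WT replicate 3 (0.0678), and NC over WT (0.28, adjusted p = 0.095) passed without WT replicate 1 (adjusted p = 0.0359). ATP6AP1, an accessory subunit, was at 72.7 to 95.0 CPM over all samples, with log2 fold changes of -0.14 and -0.06 in ESX1 and NC over WT and no call.

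**Figure D4:**
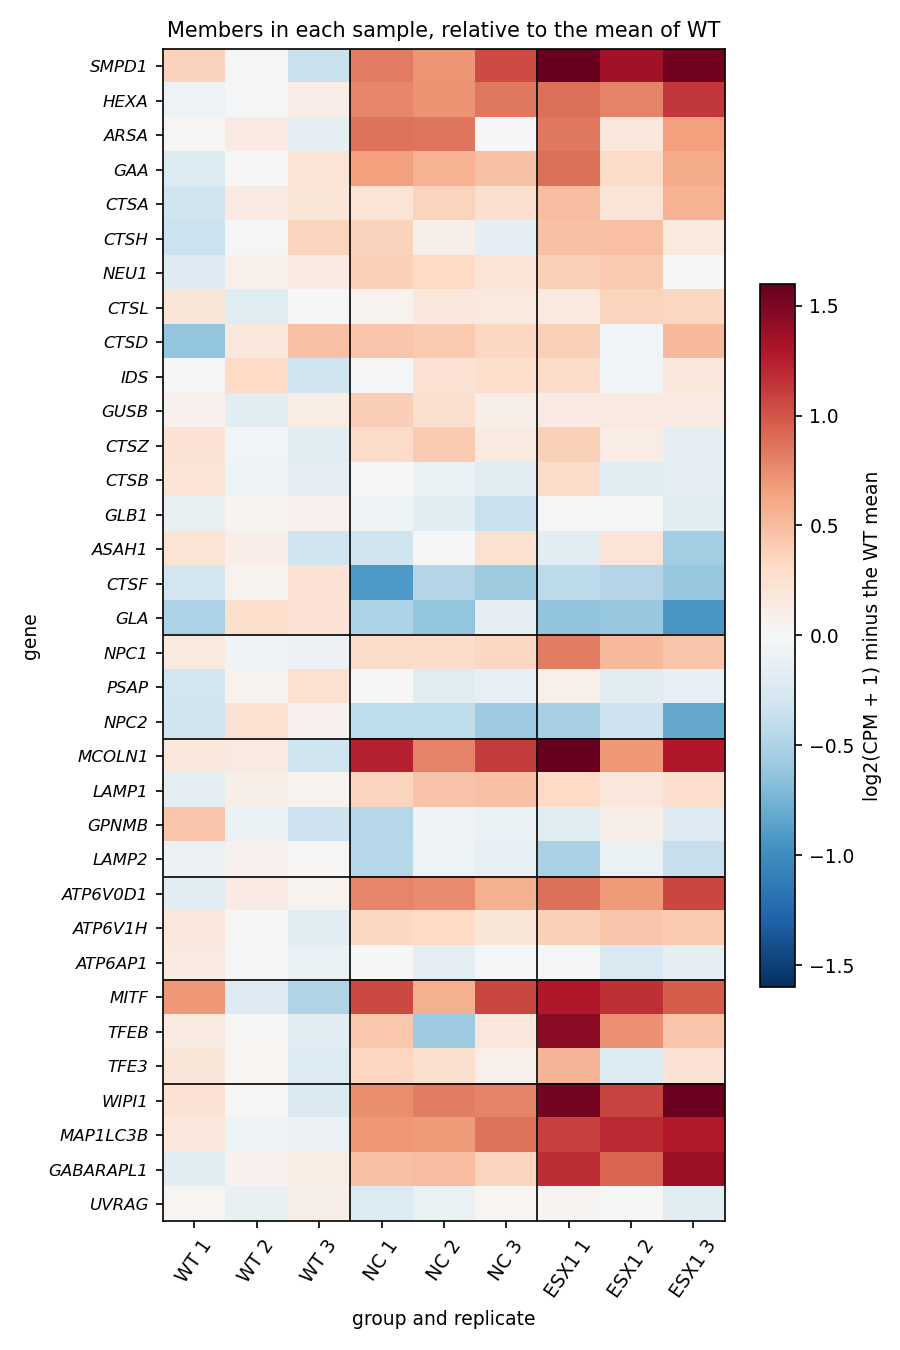
Colour gives log2(CPM + 1) of each of the 34 tested genes (rows, by role) in each sample (columns, group and replicate) minus the mean of the 3 WT samples, red for higher and blue for lower. The red rows of SMPD1, HEXA, MCOLN1, ATP6V0D1, WIPI1, MAP1LC3B and GABARAPL1 run through all 6 transfected samples, and WT replicate 1 differs from the other WT samples in CTSD, GLA, NPC2 and MITF.

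Further genes of the same pathway, in 7 lists of 133 genes of which 125 were tested, were counted in the same way. These lists were chosen with earlier results of these data known, so their shares are not independent of the data. In ESX1 against WT 32 rose (25.6%, against 12.9% of all genes) and 12 fell (9.6%, against 15.8%). In NC against WT 19 rose (15.2%, against 6.82%) and 14 fell (11.2%, against 10.3%). In ESX1 against NC 5 rose (4.0%, against 1.88%) and 0 fell (against 2.37%). The list of nutrient signalling at the lysosome held the largest change of these 125 genes in ESX1 against either control. RRAGD, a Rag GTPase that recruits MTORC1 to the lysosome, was at 1.97, 3.06 and 2.82 CPM in WT, 6.32, 5.57 and 4.58 in NC, and 59.3, 61.5 and 47.5 in ESX1. The ESX1 samples were far above all controls. RRAGD rose 10.2-fold over NC (log2 fold change 3.35 ± 0.19 SE, adjusted p = 2.09e-08) and 21.6-fold over WT (adjusted p = 9.71e-10), and NC rose 2.11-fold over WT (adjusted p = 0.00496). FNIP1, of the folliculin complex that regulates it, rose over WT in ESX1 (0.68, adjusted p = 0.000258) and NC (0.43, adjusted p = 0.0142, lost without WT replicate 2 at 0.0766 or NC replicate 2 at 0.0811). RRAGC, FLCN and FNIP2 also rose in ESX1 over WT (0.72, 0.75 and 0.63 on the log2 scale), so that 5 of the 14 tested genes of this list rose (35.7%) and 1, LAMTOR1, fell (-0.36), and in NC against WT 4 rose (28.6%) and 0 fell.

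Among further ATG8 proteins and cargo receptors, 6 of 12 rose and 0 fell in ESX1 against WT, and 5 (41.7%) rose and 1, NCOA4, fell in NC against WT. SQSTM1, the p62 receptor of ubiquitinated cargo, was at 49.9, 54.7 and 53.0 CPM in WT, 159, 133 and 131 in NC, and 473, 235 and 310 in ESX1. Its groups were stepped without overlap and it was the only one of this list to rise over NC (2.41-fold, log2 fold change 1.27 ± 0.18 SE, adjusted p = 0.000508), after a 2.68-fold rise of NC over WT (adjusted p = 0.0001). The study itself reports SQSTM1 among its genes raised over both controls in these same samples, so this rise is no independent result. OPTN, the receptor of damaged mitochondria, rose 1.74-fold in ESX1 and 1.76-fold in NC over WT (adjusted p = 0.00126 and 0.0021), and CALCOCO2, TAX1BP1 and TOLLIP rose in both as well. Of the 30 tested genes of autophagosome formation 4 (13.3%, near the 12.9% of all genes) rose in ESX1 against WT (ATG14, ATG2B, WIPI2 and ATG4A). In the same comparison 2 (6.67%, against 15.8%) fell (ULK2 and ATG4C), and 0 passed against NC (background 1.88% higher and 2.37% lower). In NC against WT 1 (3.33%, against 6.82%) rose (WIPI2) and 2 (6.67%, against 10.3%) fell: VMP1 (-0.58, adjusted p = 0.0089) and the protease ATG4C (-0.78, adjusted p = 0.0169). Both falls were lost without WT replicate 2 (0.0726 and 0.0934) or NC replicate 1 (0.0571 and 0.0869), and that of ATG4C also without NC replicate 3 (0.093).

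Hydrolases beyond the 18 moved both ways over WT. In ESX1 against WT 5 of 27 rose (18.5%, against 12.9% of all genes) and 5 fell (18.5%, against 15.8%). In NC against WT 4 rose (14.8%, against 6.82%) and 5 fell (18.5%, against 10.3%). CTSK rose in NC over WT (log2 fold change 0.96, adjusted p = 0.00223), as did HGSNAT (0.70, adjusted p = 0.00638), while LIPA, the acid lipase, fell (-0.83) and so did CTSO (-1.04).

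Of the further membrane proteins 5 of 18 rose (27.8%, against 12.9% of all genes) and 2 fell (11.1%, against 15.8%) in ESX1 against WT. In NC against WT 2 rose (11.1%, against 6.82%) and 4 fell (22.2%, against 10.3%). LAMP3, an inducible LAMP paralog, was at 0.66, 0 and 0.84 CPM in WT, 8.09, 8.90 and 10.3 in NC, and 10.4, 15.0 and 8.31 in ESX1. It rose in NC over WT (log2 fold change 4.04 ± 0.44 SE, adjusted p = 1.94e-05), and ESX1 was 0.32 ± 0.31 from NC (adjusted p = 0.682). The sialic acid exporter SLC17A5 rose 1.78-fold in ESX1 over NC (adjusted p = 0.0153), a call lost without NC replicate 1 (0.0949), NC replicate 2 (0.0588) or ESX1 replicate 2 (0.0653), and 1.61-fold over WT (adjusted p = 0.0115), lost without WT replicate 3 (0.052) or ESX1 replicate 2 (0.0639). LAPTM4A fell in NC over WT (-0.78, adjusted p = 0.00223) and was higher in ESX1 than in NC (0.74, adjusted p = 0.00888, lost without NC replicate 1 at 0.0567), so that ESX1 and WT differed by -0.04. LAPTM4B fell over WT in NC (-0.76, adjusted p = 0.000295) and in ESX1 (-0.55, adjusted p = 0.00165).

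Other V-ATPase subunits gave 4 rises (28.6%, against 12.9% of all genes) and 2 falls (14.3%, against 15.8%) among 14 in ESX1 against WT. In NC against WT they gave 1 of each (7.14%, against 6.82% rising and 10.3% falling). ATP6V0A1 rose in NC over WT (log2 fold change 0.53, adjusted p = 0.0078, lost without WT replicate 2 at 0.0627), and ATP6AP2, the prorenin receptor, fell (-0.39, adjusted p = 0.0436), a call lost without 6 of the 9 samples in turn (ATP6AP2 adjusted p = 0.0602 to 0.225, all but WT replicate 1 and ESX1 replicates 1 and 2). Of the 10 genes that sort hydrolases to the lysosome 3 rose (background 12.9%) and 0 fell (background 15.8%) in ESX1 against WT. In NC against WT 2 of the 10 rose (background 6.82%) and 1 fell (background 10.3%), a share of falls near that of all genes. Among the risers of both was IGF2R, the mannose 6-phosphate receptor (0.63 in ESX1 against WT, adjusted p = 0.000276). IGF2R rose alike in NC (0.66, adjusted p = 0.000425), and SUMF1, which activates sulfatases, fell in NC over WT (-0.37, adjusted p = 0.0462), a call lost without 6 of the 9 samples in turn (SUMF1 adjusted p = 0.0627 to 0.204, all but WT replicate 1 and ESX1 replicates 1 and 2).

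The 8 macrophage markers summed to 1.17 to 3.34 CPM in WT, 5.49 to 6.11 in NC and 4.43 to 8.21 in ESX1, with no overlap between WT and the transfected groups, TYROBP at 0 counts in all samples and PTPRC at 0 or 1. The 3 that were tested all had log2 fold changes above 0 over WT, with medians of 1.073 in ESX1 and 1.055 in NC. Of these 3, 1 rose in ESX1 against WT (33.3%, against 12.9% of all genes), and 0 were called in the other comparisons. The 5 melanocyte markers summed to 8.52 to 9.04 CPM in WT, 8.25 to 11.5 in NC and 20.7 to 30.01 in ESX1, with TYR and DCT at 0 or 1 count in every sample. PMEL, the melanosome fibril protein and a gene driven by MITF in melanocytes, made most of that difference and was picked out once its values were known. Of the 3 melanocyte markers tested in ESX1 against WT, PMEL and MLANA rose and TYRP1 fell (log2 fold change -1.18, adjusted p = 0.0259). PMEL was at 0.66, 1.17 and 1.05 CPM in WT, 1.97, 0.86 and 1.53 in NC, and 19.3, 11.5 and 11.5 in ESX1, 9.64-fold over NC (adjusted p = 2.02e-05). The 6 fibroblast markers summed to 191 to 338 CPM in WT, 133 to 169 in NC and 109 to 228 in ESX1, mostly COL1A2, with DCN at 0 to 5 counts. Only 2 of them were tested, and they moved both ways. Over WT 1 rose, by at least 2-fold, and 1 fell in ESX1 (background 12.9% and 15.8%) and likewise in NC (6.82% and 10.3%). In ESX1 against NC 0 were called. Mitochondrial genes took 17.0% to 18.3% of counts in WT, 14.5% to 15.3% in NC and 19.2% to 19.9% in ESX1. The part of the falling seminoma markers and of the mitochondrial share in the values above was not tested. For the scaling alone, a refit left out mitochondrial and small structural RNA genes. It moved log2 fold changes by a median of 0.014 in ESX1 against WT, 0.017 in NC against WT and -0.003 in ESX1 against NC. No call of the 34 genes changed in that refit.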

How the data were processed

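RNA was sequenced as read pairs from a stranded total RNA library of each of 9 samples, grouped by title into WT, NC and ESX1 with 3 biological replicates each. The authors aligned the reads to GRCh38 using HISAT2 2.0.5, featureCounts gave a number of reads for each gene, and the deposited counts are not normalized and not pooled. The header of the count table names featureCounts 1.5.2 and GENCODE v26 and no strand option, whereas the submitters' processing notes give version 1.6.5. The authors also deposited log2 values normalized with DESeq2, whose transformation is not given in the sources used here. Symbols come from the log2 table, joined to the counts by row, with 0 rows at odds. There were 0 columns of other samples.

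Counts were analysed in R 4.3.3. Genes were kept by filterByExpr (18452 of 63856), scaled with TMM and fitted over all 9 samples with edgeR 4.0.16 (glmQLFit, glmQLFTest). Adjustment of p was by Benjamini-Hochberg across the 18452 genes, and the standard error is the log2 fold change divided by the square root of F. The second rule, at least 2-fold, is the threshold of the study. Depth was 5212804 to 10644408 counts, replicates correlated at 0.967 to 0.980 across genes, with a common dispersion of 0.0277. The fits were tested on simulated data.

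All 35 genes are named. Of each further list, up to 4 genes with the smallest adjusted p in ESX1 against NC and up to 2 in NC against WT are named, and other genes of these lists are examples chosen after their values were seen. Some genes that this rule names are not reported here. The 3 genes with the largest changes per comparison are given by sample, and others that were called are given so too. The genes, lists, tests and alternatives were chosen with earlier results of these data known, and the test of the study is not given in the sources used here. Alternatives were DESeq2 1.42.0 (Wald test), RLE and upper-quartile factors, no filter, at least 10 counts in every sample, 6 samples only, limma 3.58.1 on the authors' log2 values, a total without mitochondrial and small structural RNAs, the replicate block, and leaving out each sample. Motifs were searched on both strands of RefSeq promoter windows (GRCh38.p14). The files carry GRCh38 positions, and no genome of that build was used.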

Additional observations from a re-analysis of the deposited data

How the results depend on the processing

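No called log2 fold change of the 34 genes changed its sign in any alternative or fit without 1 sample in which the gene was tested. MITF and CTSF were not tested with at least 10 counts in every sample. The number of genes called in ESX1 against NC, and the number called the same way against both controls, was 1 and became 3 with DESeq2 (SMPD1 and MAP1LC3B joining GABARAPL1), 2 without the filter on low counts, 2 with only the 6 samples compared, and 1 to 3 without 1 sample (highest without ESX1 replicate 2). The 2-fold count in NC against WT was 1 and became 2 with upper-quartile factors, 0 with limma and 1 to 4 without 1 sample (highest without WT replicate 1). The 2-fold count in ESX1 against WT was 7 and became 4 with limma, and 5 to 8 without 1 sample. The count of calls in ESX1 against WT was 14, with 13 to 17 under the alternatives and 9 to 16 without 1 sample (lowest without WT replicate 2). In NC against WT it was 10, with 10 to 12 and 7 to 11. Upper-quartile factors moved the median of all genes by 0.10 on the log2 scale in ESX1 against WT. With the replicate block, taken from the numbers in the titles, the calls were 16 in ESX1 against WT, 11 in NC against WT, 3 in ESX1 against NC and 3 against both controls, with 7, 1 and 0 at 2-fold. Same-numbered samples deviated together with correlations of -0.01 to 0.06 in ESX1 and WT and -0.03 to 0.02 in NC and WT. In ESX1 and NC the correlations were 0.02 to 0.19, with replicates 1 and 2 highest with their own number and replicate 3 not. A pairing of the samples was thus neither shown nor excluded. GLA in ESX1 against WT (6 samples only, adjusted p = 0.0523) and NPC2 in NC against WT (upper-quartile factors, adjusted p = 0.0745) lost their calls, and CTSA, NEU1, LAMP1, LAMP2, NPC1 and ATP6V1H gained one under at least 1 alternative. Of the further genes, ATP6AP2 and SUMF1 in NC against WT lost their calls under 4 and 6 of the alternatives, and the fall of ATG4C in ESX1 against WT was lost with upper-quartile factors (adjusted p = 0.0656) and without WT replicate 2 (0.133), ESX1 replicate 1 (0.118) or ESX1 replicate 3 (0.0616). Limma on the authors' log2 values gave smaller differences for RRAGD (2.73) and PMEL (1.95) in ESX1 against NC and for LAMP3 (2.09) in NC against WT, all past the threshold. The cause of these changes was not tested. Depth limits TFEB, MITF, CTSF, ARSA and IDUA most.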
